A study of Homo sapiens with 18 samples.

Results

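Extracellular proteases and their inhibitors were followed in 2 human melanoma lines after lentiviral expression of the melanosome matrix protein PMEL, knockdown of FHL2, a scaffold protein with LIM domains, or knockdown of NFYA, which is part of NF-Y, a factor that binds CCAAT boxes. The genes are those in the array table whose 1 current symbol is MMP, ADAM, ADAMTS or TIMP followed by a digit, or starts with SERPIN. This rule gave 38 genes of the 11232 with a probe set of their own, through 68 of 20264 such probe sets, and of several probe sets the one with the highest mean over all arrays stands for the gene. A gene entered the tests where it reached log2 4 in at least 3 arrays, which 36 of the 38 did. SERPINA6, the corticosteroid carrier of plasma, read at most 3.40 on any array, and ADAMTS6 reached log2 4 on 2 arrays, so neither was tested.

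Matrix metalloproteinases (MMPs) are zinc proteases that are secreted or membrane-bound, made as inactive zymogens, and cut collagens and other matrix proteins. TIMPs are small secreted proteins that block the active site of MMPs and of some ADAMs. ADAMs are membrane proteins, many of which release the outer parts of other membrane proteins, and ADAMTS proteases are secreted and cut proteoglycans and procollagens. Serpins trap serine proteases through a change of shape, although several members no longer inhibit any protease. In melanoma this system is studied for invasion through dermal collagen and for the plasmin cascade at the cell surface.

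A375M2 is a metastatic subline of the human melanoma line A375, and C32 is a human melanoma line that, unlike A375M2, was here rich in the pigment gene transcripts MLANA and TYR. A375M2 cells carried a GFP lentivirus, a lentivirus with full-length His-tagged PMEL, an shRNA lentivirus against FHL2 or an shRNA lentivirus against NFYA, and C32 cells carried a GFP lentivirus or the FHL2 shRNA, with 3 arrays in each of the 6 groups. PMEL was driven by the CMV promoter with eGFP behind an internal ribosome entry site, and the FHL2 shRNA virus was a pool of 3 constructs. A375M2 cells were sorted by flow cytometry, grown for 15 days in selective medium and lysed at 80% confluence. Such details for C32 and for the NFYA arm are not given in the sources read here. The labels' text on selection, which names no line, describes transduced cultures under drug selection, not clones, for the PMEL, GFP and FHL2 viruses and says nothing of the NFYA virus. No group with a non-targeting shRNA was analysed here, and which GFP vector the control arrays hold is not stated. The labels describe 3 separate experiments for A375M2; nothing says so for C32 and the NFYA arm, where p-values may measure only technical spread.

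Values are log2 signals made with GCRMA, and a difference of 1 is a doubling. The table holds no detection call, values under log2 4 lie at the low end of the scale, and a difference from such a value is not read here as a fold of RNA. Because the RNA is from bulk cultures, fewer cells of a type and less RNA per cell cannot be told apart. FHL2 read 7.01 to 7.26 in A375M2 shFHL2 against 11.17 to 11.27 in GFP, and 5.30 to 6.10 in C32 shFHL2 against 11.03 to 11.12. NFYA read 7.34 to 7.69 in shNFYA against 9.40 to 9.72 in GFP, and also fell in A375M2 shFHL2, by 0.73 log2 (limma adjusted p = 1.04e-06). PMEL rose by 3.38 log2 in the PMEL arm (limma adjusted p = 1.59e-12), so the targeted genes moved as labelled.

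Features of the arrays bear on the values below. Replicate 3 of C32 GFP differed from the average of the first pair of arrays by an SD of 0.00806 log2, against 0.135 to 0.208 for the arrays outside that group, and was left out, so C32 GFP has n = 2. Replicate 3 of A375M2 GFP and replicate 3 of A375M2 PMEL deviated from the means of their first pairs in opposite directions with a correlation of -0.999 over 22359 probe sets, and the sum of both deviations had an SD of 0.00725 where each alone had 0.141 and 0.14. These arrays therefore do not vary freely of each other, and calls that end without them are named. Finally, values under log2 4 coincided exactly at 511 to 939 probe sets between replicates 1 and 2 of A375M2 GFP and PMEL and at 300 to 749 between A375M2 shRNA arrays, but at 0 between any A375M2 shRNA array and any A375M2 GFP or PMEL array. The replicate 3 arrays of A375M2 GFP and PMEL coincided at 514 with each other and at 0 with replicates 1 and 2 of their own groups, so these 2 groups each span 2 sets of arrays. A375M2 shRNA arrays and C32 shFHL2 arrays coincided at 38 to 50, and the C32 GFP arrays used with C32 shFHL2 at 372. The A375M2 knockdown and the set of arrays on which it was measured cannot be told apart. The C32 GFP arrays used coincided at 0 with every A375M2 GFP array, so line and set of arrays cannot be told apart between these groups either. Over 10940 genes the correlation of group means was 0.875 for A375M2 shFHL2 with GFP and 0.847 for shNFYA with GFP, against 0.992 for PMEL with GFP, 0.977 for the C32 groups and 0.815 for C32 GFP with A375M2 GFP.

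The summed level of 11 melanocyte and melanoma genes was 15.40 to 15.50 in A375M2 GFP, 15.42 to 15.48 in PMEL, 14.17 to 14.26 in shFHL2, 13.82 to 13.89 in shNFYA, 16.60 to 16.67 in C32 GFP and 15.60 to 15.67 in C32 shFHL2. Among them the lineage factor SOX10 averaged 11.79 to 12.88 over the groups, while the lineage factor MITF averaged 14.24 in A375M2 GFP, 10.05 in shFHL2 and 8.95 in shNFYA, and S100B 13.33, 11.46 and 10.02. MCAM and CSPG4 did not fall, at 10.97, 11.82 and 11.43 and at 11.56, 12.41 and 11.66 in the same order. Of these 11, those under log2 4 were MLANA in A375M2 GFP and PMEL, PMEL, MLANA, TYR and TYRP1 in A375M2 shFHL2, and PMEL, MLANA and TYR in shNFYA. The summed level of 3 keratin genes, markers of epithelia, was 11.35 to 11.51 in A375M2 GFP, 12.74 to 12.81 in shFHL2, 12.10 to 12.19 in shNFYA and at most 4.29 in C32. KRT18 made up most of it in A375M2, at 11.44, 12.76 and 12.12, against 3.4, 4.73 and 4.78 for KRT8 and 2.49, 2.97 and 5.08 for KRT14. The leukocyte gene LYZ averaged 3.74 in A375M2 GFP, 9.45 in shFHL2 and 9.40 in shNFYA, with PTPRC under log2 4 in all of them. The summed level of 6 fibroblast genes was 11.50 to 11.69 in GFP, 8.92 to 9.04 in shFHL2 and 8.74 to 8.93 in shNFYA, and endothelial KDR averaged 6.83, 7.58 and 5.86. The fibroblast genes did not move together. In the same order LUM averaged 11.11, 7.37 and 7.5, FAP 8.93, 3.3 and 3.35, and PDGFRA 8.09, 7.53 and 7.06. COL1A1 was higher in both knockdown arms, at 5.77, 7.05 and 6.78, and COL1A2 and DCN were under log2 4 in these groups. With FHL2 knockdown in C32, KDR went from 10.18 to 7.83, LYZ from 3.70 to 5.69 and PTPRC from 8.63 to 7.80, while the fibroblast sum was 12.15 to 12.32 in GFP and 12.73 to 12.75 in shFHL2. The ribosomal RNA control probe sets averaged 11.95 in A375M2 GFP, 11.07 in PMEL, 13.37 in shFHL2, 13.36 in shNFYA, 12.48 in C32 GFP and 12.91 in C32 shFHL2, and the poly-A spike probe sets 9.37 in C32 GFP against 5.96 in C32 shFHL2. The actin 3′ minus 5′ difference, a sign of RNA degradation, was 0.61 ± 0.13 (SD, n = 3) in A375M2 GFP, 0.74 ± 0.08 (n = 3) in PMEL, 1.07 ± 0.08 (n = 3) in shFHL2, 1.19 ± 0.08 (n = 3) in shNFYA, 1.08 ± 0.02 (n = 2) in C32 GFP and 0.87 ± 0.04 (n = 3) in C32 shFHL2. The part of these in the results below was not tested.

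Both A375M2 knockdown arms read far higher for MMP1, SERPINH1 and SERPIND1 and far lower for SERPINF1, TIMP2 and MMP8 than the GFP arm, on the separate sets of arrays described above. After FHL2 knockdown 34 of the 36 genes tested were called at an adjusted p under 0.05, 18 higher and 16 lower, where 85.4% of all genes were called, 41.1% higher and 44.3% lower. At 2-fold or more the count was 20, 10 each way, against 31.4% of all genes, 15.2% higher and 16.2% lower. After NFYA knockdown 35 of 36 were called, 18 higher and 17 lower, against 86.8% of all genes, 43.5% higher and 43.3% lower. At 2-fold or more 13 were higher and 10 lower, 23 in all, against 35.8% of all genes, 17.3% higher and 18.5% lower. The median over the 36 genes was 0.20 log2 in shFHL2 and 0.11 in shNFYA, where all genes had -0.04 and 0.00. Both comparisons use the same GFP arrays.

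In the PMEL arm 22 of 36 genes were called, or 61.1%, 8 higher and 14 lower, against 39.9% of all genes, 22.1% higher and 17.8% lower. At 2-fold or more there were 2, ADAM12 and SERPINA5, both lower, where 2.14% of all genes passed, 0.521% higher and 1.62% lower. In C32, FHL2 knockdown gave 18 calls of 36, 6 higher and 12 lower, against 62.6% of all genes, 32.2% higher and 30.3% lower. At 2-fold or more there were 8, with ADAM19, ADAM22, ADAMTS3 and SERPINI1 higher and ADAM12, SERPINA3, SERPINF1 and TIMP3 lower, against 8.56% of all genes, 3.52% higher and 5.04% lower. ADAM22 in C32 GFP and ADAM12 in C32 shFHL2 had means under log2 4, at 3.03 and 2.73.

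Over all 6 groups, 27 of the 36 genes had group means that spanned more than 2 log2, and the widest span was 10.31, for SERPINH1. Shares over all genes are not given for the counts in this paragraph, which therefore only describe these genes. For 15 genes at least 1 group mean was under log2 4, and for 16 every group mean was at 6 or more. The shNFYA arm held the highest group mean for 14 of the 36 genes, and C32 shFHL2 the lowest for 11. For MMP9, SERPINB7 and ADAMTS15 the highest group was fixed by the filter, since they reached log2 4 only on shNFYA arrays.

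**Figure D1:**
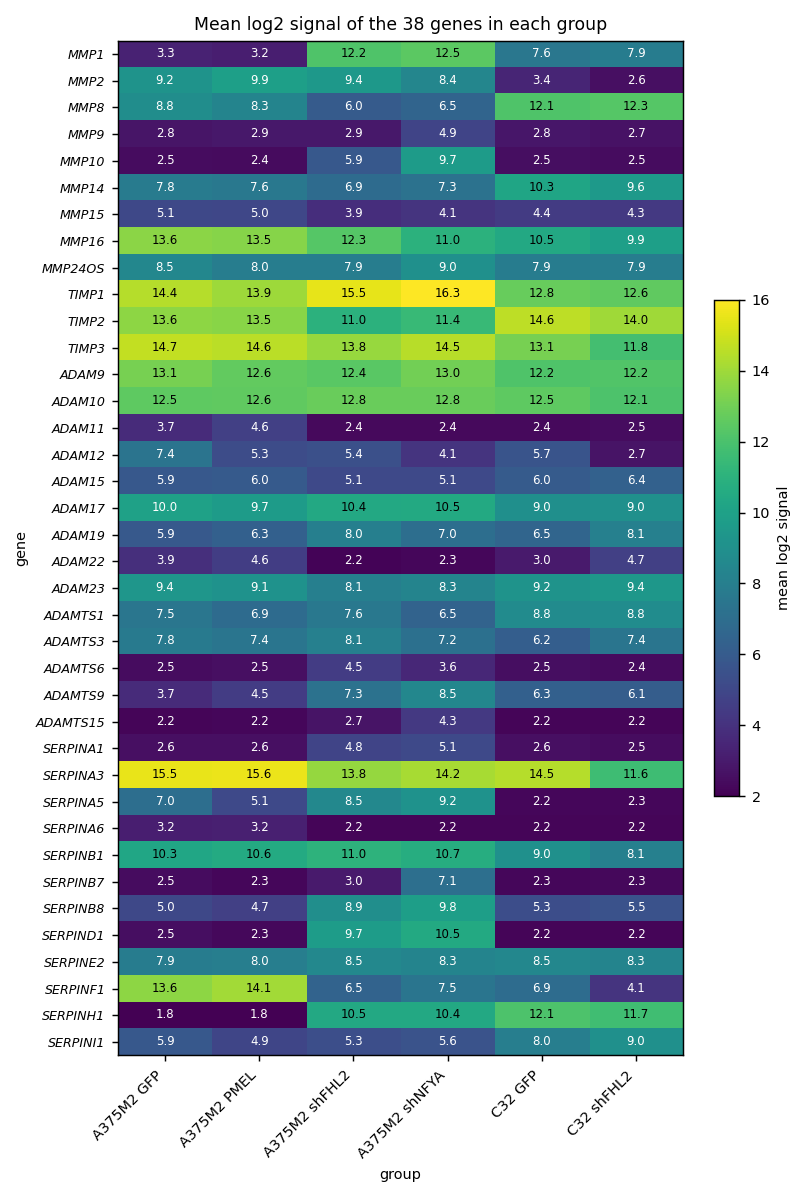
Mean log2 signal of each of the 38 genes (rows, by family) in the 6 groups (columns), with the value printed in each cell and a colour scale from 2 to 16. MMP1 goes from 3.3 in A375M2 GFP to 12.2 and 12.5 in the A375M2 knockdown arms, and SERPINF1 from 13.6 to 6.5 and 7.5.

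MMP1, the interstitial collagenase that cuts fibrillar collagen, lies in an MMP gene cluster on chromosome 11. It read 3.40, 3.20 and 3.36 in A375M2 GFP and 3.18, 3.18 and 3.12 in PMEL. It read 12.16, 12.17 and 12.12 in shFHL2 and 12.44, 12.47 and 12.51 in shNFYA, while C32 gave 7.63 and 7.51 in GFP and 7.68, 7.94 and 8.0 in shFHL2. Both A375M2 control groups lay at the low end of the scale, both knockdown arms near the top, and C32 between them. MMP1 rose by 8.83 log2 (SE 0.081 and limma adjusted p = 2.28e-22) after FHL2 knockdown and by 9.15 log2 (SE 0.081 and limma adjusted p = 6.95e-23) after NFYA knockdown. In C32 the rise with FHL2 knockdown was 0.31 log2 (SE 0.0906 and limma adjusted p = 0.00661), and without C32 GFP replicate 2 it was 0.25 with a limma adjusted p of 0.0762.

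MMP8, the collagenase of neutrophils, lies in the same cluster and moved the other way in A375M2. It read 8.74, 8.87 and 8.92 in GFP, 8.29, 8.38 and 8.21 in PMEL, 6.15, 6.14 and 5.83 in shFHL2 and 6.49, 6.49 and 6.52 in shNFYA. The knockdown arrays were all below the GFP and PMEL arrays. It fell by 2.80 log2 (SE 0.0781 and limma adjusted p = 5.04e-16) in shFHL2, by 2.35 log2 (SE 0.0781 and limma adjusted p = 4.5e-15) in shNFYA and by 0.55 log2 (SE 0.0781 and limma adjusted p = 2.92e-05) in PMEL. C32 had the highest MMP8 of all groups, at 12.07 and 12.21 in GFP and 12.28, 12.35 and 12.34 in shFHL2, and the difference of 0.19 between its groups did not pass the test.

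MMP10, or stromelysin-2, cuts proteoglycans and other matrix proteins and can activate other MMP zymogens. It was flat at 2.45, 2.44 and 2.52 in A375M2 GFP, 2.42, 2.45 and 2.35 in PMEL, 2.56 and 2.43 in C32 GFP and 2.47, 2.56 and 2.41 in C32 shFHL2. It read 5.63, 5.97 and 5.97 in A375M2 shFHL2 and 9.68, 9.49 and 9.89 in shNFYA. The 2 knockdown arms thus differed from each other, with every shNFYA array above every shFHL2 array. The rise was 3.39 log2 (SE 0.117 and limma adjusted p = 9.98e-15) in shFHL2 and 7.21 log2 (SE 0.117 and limma adjusted p = 1.67e-19) in shNFYA, and the difference of shFHL2 from shNFYA was -3.83 log2 (SE 0.117 and limma adjusted p = 1.2e-14).

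The promoter of MMP10 is shown because it is 1 of 3 among these genes with the AP-1 motif TGANTCA, a sequence read the same way on both strands that binds FOS and JUN dimers; the other two are SERPINB8 and SERPINB7, and all 3 genes were called higher in both A375M2 knockdown arms, where 41.1% of all genes were higher in shFHL2 and 43.5% in shNFYA. The SERPINB7 call in shFHL2 rests on values under log2 4 and became 0.00 (limma adjusted p = 1) with these set to 4. MMP10 reached log2 4 only on A375M2 knockdown arrays and SERPINB7 only on shNFYA arrays. The filter thus favoured higher calls for MMP10 in both arms and for SERPINB7 in shNFYA. The 250 bases before the gene's start are from RefSeq on GRCh38.p14, 5′ to 3′ along the gene, with the motif in capitals: MMP10 at chr11:102780629-102780878 on the minus strand, SERPINB8 at chr18:63969831-63970080 on the plus strand, and for SERPINB7 the start with the window chr18:63775168-63775417 on the plus strand, which is 1 of 3 listed.
MMP10: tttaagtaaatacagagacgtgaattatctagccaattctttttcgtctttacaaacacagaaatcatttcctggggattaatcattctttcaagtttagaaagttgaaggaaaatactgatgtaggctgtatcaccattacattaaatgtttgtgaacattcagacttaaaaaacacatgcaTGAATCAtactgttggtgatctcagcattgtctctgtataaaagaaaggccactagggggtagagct
SERPINB8: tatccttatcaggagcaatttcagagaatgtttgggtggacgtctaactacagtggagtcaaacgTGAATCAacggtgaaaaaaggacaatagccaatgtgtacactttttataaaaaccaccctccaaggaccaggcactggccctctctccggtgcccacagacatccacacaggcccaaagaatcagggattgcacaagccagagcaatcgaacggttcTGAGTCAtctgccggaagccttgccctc
SERPINB7: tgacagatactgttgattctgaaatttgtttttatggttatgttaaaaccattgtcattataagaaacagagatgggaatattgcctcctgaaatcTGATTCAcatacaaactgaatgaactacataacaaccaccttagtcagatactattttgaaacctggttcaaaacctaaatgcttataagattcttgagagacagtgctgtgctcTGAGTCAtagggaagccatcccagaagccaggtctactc
The motif begins 67 bases before the start in MMP10, 185 and 28 bases before it in SERPINB8, and 154 and 39 bases before it in SERPINB7; another SERPINB7 start also has 2 matches, at 206 and 45. Promoters were in the table for 27 of the 38 genes; ADAM11, MMP2, TIMP2, ADAMTS1, MMP1, ADAM9, ADAMTS15, MMP16, SERPINF1, MMP9 and ADAMTS9 were not matched. Of all 35116 promoters of this length 6.57% hold the motif, and of all 27305 genes with such a promoter 8.06%. A match describes these letters only and is not a binding site.

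Among the gelatinases, MMP2 and MMP9 degrade denatured collagen and basement membrane collagen. MMP2 read 9.25, 9.03 and 9.21 in A375M2 GFP, 9.94, 9.88 and 9.84 in PMEL, 9.46, 9.45 and 9.42 in shFHL2 and 8.41, 8.51 and 8.38 in shNFYA, so PMEL was the highest group and shNFYA the lowest of this line. It rose by 0.72 log2 (SE 0.116 and limma adjusted p = 9.73e-05) in PMEL, fell by 0.74 log2 (SE 0.116 and limma adjusted p = 1.19e-05) in shNFYA, and its difference in shFHL2 was 0.27 log2 (SE 0.116 and limma adjusted p = 0.0366). That last call ended in 5 fits with fewer arrays: without replicate 3 of both A375M2 GFP and PMEL (0.30, adjusted p = 0.0596), without GFP replicate 2 (0.21, 0.145) or without shFHL2 replicate 1 (0.26, 0.0794), 2 (0.27, 0.0743) or 3 (0.29, 0.0597), all by limma. In C32 it was under log2 4, at 3.27 and 3.58 in GFP and 2.93, 2.43 and 2.43 in shFHL2, a difference of -0.83 log2 (SE 0.13 and limma adjusted p = 2.34e-05) that became 0.00 with values under log2 4 set to 4. MMP9 was under log2 4 in 5 groups and read 4.80, 4.59 and 5.27 in shNFYA, a rise of 2.10 log2 (SE 0.145 and limma adjusted p = 1.86e-10); its difference in shFHL2 was 0.09 with a limma adjusted p of 0.563.

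The membrane-type MMPs are anchored at the cell surface, and MMP14 activates the MMP2 zymogen together with TIMP2. All 3 measured, MMP14, MMP15 and MMP16, fell in both A375M2 knockdown arms, where 44.3% of all genes were lower in shFHL2 and 43.3% in shNFYA. MMP14 read 7.85, 7.78 and 7.91 in GFP, 6.92, 6.74 and 6.99 in shFHL2 and 7.36, 7.15 and 7.32 in shNFYA, with no overlap of either arm with GFP. It fell by 0.96 log2 (SE 0.0778 and limma adjusted p = 2.01e-09) and 0.57 log2 (SE 0.0778 and limma adjusted p = 1.95e-06), and in C32, where it was higher, from 10.22 and 10.28 in GFP to 9.62, 9.65 and 9.53 in shFHL2, by 0.65 log2 (SE 0.087 and limma adjusted p = 3.96e-06). In the PMEL arm the fall of 0.23 (limma adjusted p = 0.0276) ended without replicate 3 of A375M2 GFP and PMEL, at -0.16 with a limma adjusted p of 0.24.

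MMP16 read 13.57, 13.52 and 13.60 in A375M2 GFP, 13.49, 13.50 and 13.44 in PMEL, 12.31, 12.30 and 12.30 in shFHL2 and 11.06, 10.93 and 10.99 in shNFYA. The 4 groups of arrays form steps, with GFP and PMEL together at the top and shNFYA lowest. It fell by 1.26 log2 (SE 0.0391 and limma adjusted p = 2.35e-15) in shFHL2, by 2.57 log2 (SE 0.0391 and limma adjusted p = 7.57e-20) in shNFYA and by 0.55 log2 (SE 0.0437 and limma adjusted p = 5.35e-09) in C32, where it read 10.40 and 10.52 in GFP and 9.88, 9.88 and 9.96 in shFHL2. One of its 5 probe sets rose in C32 by 0.51, and over the mean of the 5 the difference was -0.08 (limma adjusted p = 0.189). MMP15 was lower in level, at 5.16, 5.07 and 4.93 in GFP, 3.72, 3.84 and 4.01 in shFHL2 and 4.17, 4.05 and 4.17 in shNFYA, and fell by 1.20 and 0.93 log2. MMP24OS, a transcript on the opposite strand of MMP24 that is no protease, differed by -0.56 in shFHL2 and 0.52 in shNFYA, but its probe sets disagreed in shNFYA, where they ran from -0.99 to 0.52.

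TIMP1 rose in both A375M2 knockdown arms while TIMP2 fell in both. TIMP1 read 14.46, 14.36 and 14.45 in A375M2 GFP, 13.95, 13.97 and 13.92 in PMEL, 15.49, 15.45 and 15.49 in shFHL2 and 16.22, 16.27 and 16.27 in shNFYA. No 2 of these groups overlapped. It rose by 1.05 log2 (SE 0.0384 and limma adjusted p = 2.35e-14) in shFHL2, a 2.07-fold change, and by 1.83 log2 (SE 0.0384 and limma adjusted p = 6.18e-18) in shNFYA, 3.56-fold, and fell by 0.48 log2 (SE 0.0384 and limma adjusted p = 4.12e-08) in PMEL. In C32 it read 12.72 and 12.83 in GFP and 12.51, 12.65 and 12.61 in shFHL2, lower by 0.18 log2 (SE 0.0429 and limma adjusted p = 0.00134), and fitted on the 2 C32 groups alone the same difference had a limma adjusted p of 0.0579.

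TIMP2, which both inhibits MMPs and serves MMP14 as a partner in MMP2 activation, read 13.70, 13.52 and 13.70 in A375M2 GFP, 11.07, 10.98 and 10.91 in shFHL2 and 11.52, 11.41 and 11.41 in shNFYA. Both knockdown arms lay more than 2 log2 below GFP on every array. TIMP2 fell by 2.66 log2 (SE 0.0575 and limma adjusted p = 1.49e-17) and 2.20 log2 (SE 0.0575 and limma adjusted p = 1.41e-16), which is 6.3-fold and 4.58-fold. In C32 it read 14.49 and 14.67 in GFP and 13.95, 14.06 and 14.01 in shFHL2, a fall of 0.58 log2 (SE 0.0642 and limma adjusted p = 4.2e-07). All 3 of its probe sets fell in A375M2 shFHL2, by 2.53 to 2.80.

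TIMP3 is the TIMP that stays bound to the matrix and also inhibits ADAM17. It read 14.66, 14.73 and 14.71 in A375M2 GFP, 13.85, 13.83 and 13.80 in shFHL2 and 14.45, 14.52 and 14.50 in shNFYA, and 13.13 and 13.16 in C32 GFP and 11.85, 11.79 and 11.83 in C32 shFHL2. It fell by 0.87 log2 (SE 0.0286 and limma adjusted p = 5.13e-15) in A375M2 shFHL2 and by 1.32 log2 (SE 0.0319 and limma adjusted p = 9.28e-16) in C32 shFHL2, and all 4 of its probe sets fell in both. In shNFYA the fall of 0.21 log2 held for 1 of 4 probe sets only: the others rose by 0.16, 0.44 and 1.14. TIMP3 is thus the TIMP with the widest change in C32, where all 3 TIMPs measured were called lower, as were 30.3% of all genes.

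**Figure D2:**
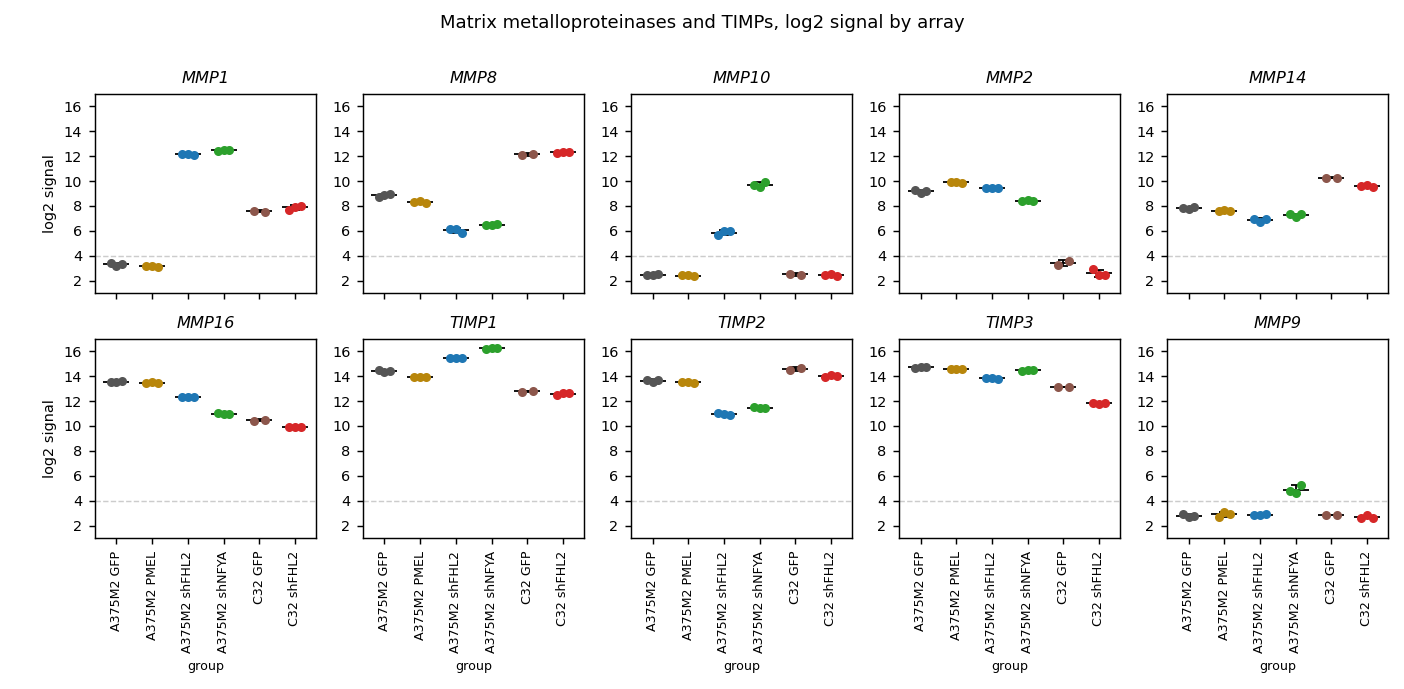
Log2 signal (vertical axis) of 7 MMPs and 3 TIMPs on each array of the 6 groups (horizontal axis); points are arrays, bars the mean ± SD, the dashed line log2 4, and C32 GFP has 2 arrays. TIMP1 and TIMP2 move apart in A375M2 shFHL2 and shNFYA, and MMP1 and MMP8 do as well.

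ADAM10 and ADAM17 are the main sheddases of cell-surface proteins, and both changed little. ADAM10 read 12.45, 12.53 and 12.53 in A375M2 GFP, 12.78, 12.76 and 12.81 in shFHL2 and 12.83, 12.77 and 12.77 in shNFYA, higher by 0.28 log2 (SE 0.0285 and limma adjusted p = 5.52e-08) and 0.29 log2 (SE 0.0285 and limma adjusted p = 3.34e-08). In C32 it fell by 0.44 log2 (SE 0.0319 and limma adjusted p = 1.72e-09), from 12.52 and 12.49 to 12.06, 12.06 and 12.07. ADAM17 rose by 0.45 in shFHL2 and 0.53 in shNFYA, and in C32 it differed by 0.02 (limma adjusted p = 0.679); its probe set of largest variance gave 0.13 in A375M2 shFHL2 (limma adjusted p = 0.302) and 0.60 in C32 (limma adjusted p = 0.000985). ADAM9, a broadly expressed ADAM, fell by 0.72 log2 (SE 0.0433 and limma adjusted p = 2.81e-11) in shFHL2, and its difference in shNFYA was -0.07 (limma adjusted p = 0.129), with another probe set at -1.25.

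ADAM19, a protease that can cut neuregulin precursors, rose in every knockdown arm. It read 5.66, 6.07 and 5.98 in A375M2 GFP, 8.07, 8.10 and 7.90 in shFHL2, 6.93, 7.14 and 7.03 in shNFYA, 6.46 and 6.62 in C32 GFP and 8.16, 8.05 and 8.17 in C32 shFHL2. No knockdown array overlapped with the GFP arrays of its line, and the shFHL2 arms of both lines reached nearly the same level. It rose by 2.12 log2 (SE 0.112 and limma adjusted p = 4.59e-12) in A375M2 shFHL2, 1.13 log2 (SE 0.112 and limma adjusted p = 3.09e-08) in shNFYA and 1.58 log2 (SE 0.125 and limma adjusted p = 5.34e-09) in C32.

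ADAM12, a protease of mesenchymal and regenerating tissues, was lower in every arm than in GFP, PMEL included. It read 7.03, 7.38 and 7.77 in A375M2 GFP, 5.48, 5.40 and 4.88 in PMEL, 5.34, 5.40 and 5.48 in shFHL2 and 4.56, 3.81 and 3.94 in shNFYA. PMEL and shFHL2 overlapped with each other, and GFP stood apart. It fell by 2.14 log2 (SE 0.316 and limma adjusted p = 4.15e-05) in PMEL, 1.99 log2 (SE 0.316 and limma adjusted p = 1.4e-05) in shFHL2 and 3.29 log2 (SE 0.316 and limma adjusted p = 2.02e-08) in shNFYA. In C32 it read 5.83 and 5.49 in GFP and 3.73, 2.22 and 2.24 in shFHL2, a fall of 2.93 log2 (SE 0.353 and limma adjusted p = 1.13e-06). In the PMEL arm the difference was -1.76 within replicates 1 and 2 and -2.88 between the replicate 3 arrays. ADAM15 fell by 0.78 in shFHL2 and 0.79 in shNFYA, and its difference in C32 was 0.35 (limma adjusted p = 0.0566).

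ADAM11, ADAM22 and ADAM23 lack the zinc-binding protease motif and act as adhesion and receptor proteins, best known in neurons. All 3 fell in both A375M2 knockdown arms, and 2 of 3, ADAM22 and ADAM23, rose in C32. Of all genes 44.3% were lower in shFHL2 and 43.3% in shNFYA, and 32.2% were higher in C32. ADAM23 read 9.44, 9.33 and 9.30 in A375M2 GFP, 8.06, 7.98 and 8.11 in shFHL2, 8.38, 8.22 and 8.38 in shNFYA, 9.27 and 9.06 in C32 GFP and 9.42, 9.33 and 9.51 in C32 shFHL2. It fell by 1.31 log2 (SE 0.0701 and limma adjusted p = 5.76e-12) and 1.03 log2 (SE 0.0701 and limma adjusted p = 1.49e-10) in A375M2 and rose by 0.25 log2 (SE 0.0783 and limma adjusted p = 0.0097) in C32, and without C32 GFP replicate 2 that rise was 0.15 with a limma adjusted p of 0.194. Of its 3 probe sets, 1 was higher in shNFYA than in GFP, by 0.39. ADAM22 read 3.27 and 2.79 in C32 GFP and 4.93, 4.83 and 4.24 in C32 shFHL2, a rise of 1.63 log2 (SE 0.192 and limma adjusted p = 8.43e-07). In A375M2 it was at or under log2 4.07 in GFP and fell by 1.73 and 1.64, differences that shrank to -0.02 with values under log2 4 set to 4, as those of ADAM11 did to -0.09.

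Of the 4 ADAMTS proteases tested, ADAMTS9 and ADAMTS15 rose in both A375M2 knockdown arms, ADAMTS15 in shFHL2 by 0.50 with all values under log2 4. The shares of all genes higher in these arms were 41.1% in shFHL2 and 43.5% in shNFYA. ADAMTS9, which cuts the proteoglycans versican and aggrecan, read 3.87, 3.87 and 3.40 in A375M2 GFP, 4.61, 4.06 and 4.78 in PMEL, 7.49, 7.13 and 7.18 in shFHL2 and 8.35, 8.52 and 8.51 in shNFYA. GFP was the lowest of these groups and shNFYA the highest. It rose by 3.56 log2 (SE 0.173 and limma adjusted p = 1.44e-12) in shFHL2 and 4.75 log2 (SE 0.173 and limma adjusted p = 1.69e-14) in shNFYA, and C32 showed 6.11 and 6.51 in GFP and 6.18, 5.99 and 6.19 in shFHL2, with no call. In PMEL the rise of 0.77 ended without replicate 3 of A375M2 GFP and PMEL, at 0.47 with a limma adjusted p of 0.0631. ADAMTS15, also a proteoglycan protease, rose above log2 4 in 1 group, shNFYA, at 4.21, 4.42 and 4.31 against 2.21, 2.22 and 2.20 in GFP. ADAMTS6 was untested and averaged 4.49 in A375M2 shFHL2 and 2.48 in GFP.

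ADAMTS3, which trims the amino end of procollagen, went in opposite directions under the 2 shRNAs. It read 7.72, 7.78 and 7.88 in A375M2 GFP, 7.96, 8.05 and 8.27 in shFHL2 and 7.09, 7.24 and 7.25 in shNFYA. It rose by 0.30 log2 (SE 0.0855 and limma adjusted p = 0.00368) in shFHL2, fell by 0.60 log2 (SE 0.0855 and limma adjusted p = 3.33e-06) in shNFYA, and was higher in shFHL2 than in shNFYA by 0.90 log2 (SE 0.0855 and limma adjusted p = 4.43e-08). In C32 it rose with FHL2 knockdown too, by 1.21 log2 (SE 0.0956 and limma adjusted p = 5.12e-09), from 6.27 and 6.14 to 7.40, 7.44 and 7.41. In the PMEL arm it fell by 0.36 (limma adjusted p = 0.00271), which became -0.27 with a limma adjusted p of 0.065 without replicate 3 of A375M2 GFP and PMEL. ADAMTS1, a proteoglycan protease, was lower in shNFYA by 1.02 log2 (SE 0.129 and limma adjusted p = 7.76e-07), and its difference in shFHL2 was 0.13 (limma adjusted p = 0.366). Its other probe set, lower in level, gave 0.03 in shNFYA.

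**Figure D3:**
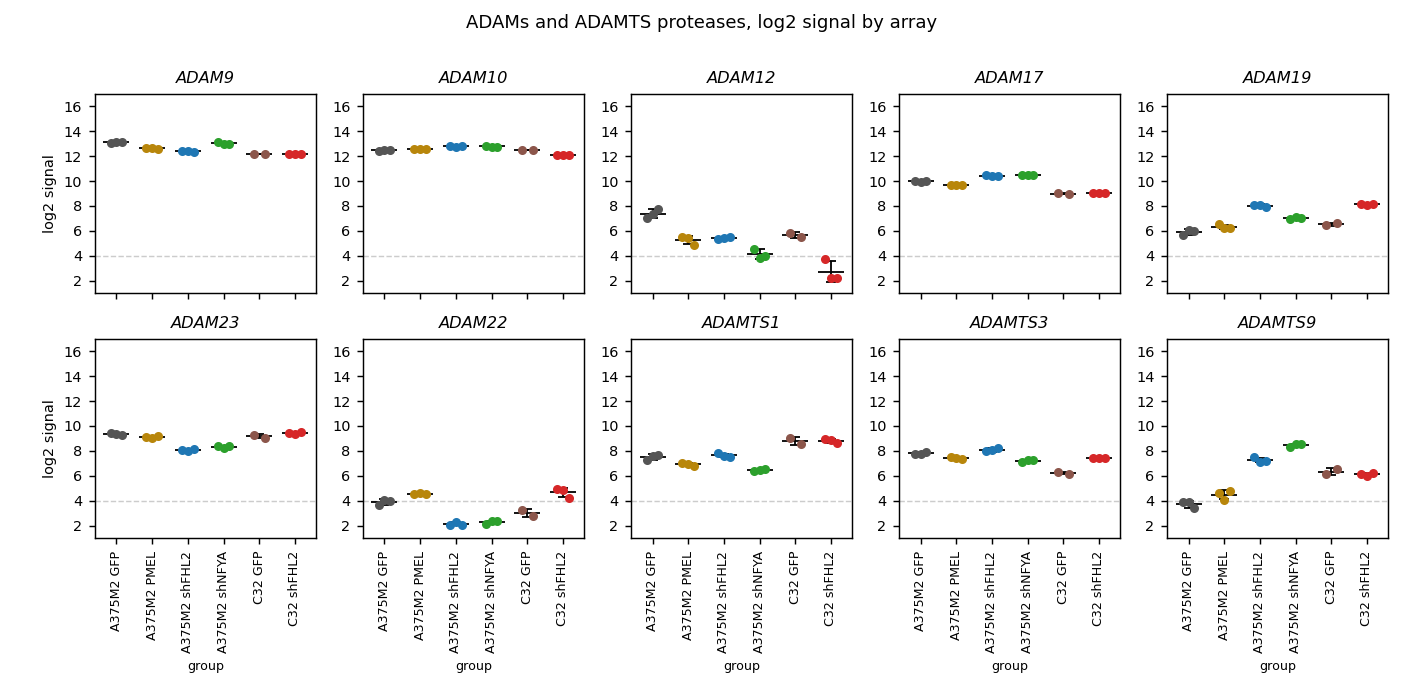
Log2 signal (vertical axis) of 7 ADAMs and 3 ADAMTS proteases on each array of the 6 groups (horizontal axis); points are arrays, bars the mean ± SD, the dashed line log2 4, and C32 GFP has 2 arrays. ADAM10 stays between 12.06 and 12.83 on every array, while ADAM19 is highest in the shFHL2 arms of both lines.

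SERPINF1, or pigment epithelium-derived factor, is a secreted serpin that inhibits no protease and is known as an antiangiogenic protein. It read 13.57, 13.53 and 13.74 in A375M2 GFP and 14.20, 14.06 and 13.95 in PMEL, against 6.38, 6.44 and 6.61 in shFHL2 and 7.49, 7.44 and 7.43 in shNFYA. In C32 it read 6.71 and 7.14 in GFP and 3.78, 4.36 and 4.25 in shFHL2. All knockdown arrays lay below the GFP arrays of their line, and the A375M2 GFP and PMEL arrays above all others. It fell by 7.14 log2 (SE 0.128 and limma adjusted p = 1.19e-18) in A375M2 shFHL2, 6.16 log2 (SE 0.128 and limma adjusted p = 5.66e-18) in shNFYA and 2.80 log2 (SE 0.144 and limma adjusted p = 1.86e-11) in C32 shFHL2, which is 141-fold, 71.6-fold and 6.96-fold.

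SERPINA3, the antichymotrypsin of plasma, which inhibits cathepsin G and chymase, fell in the same arms. It read 15.59, 15.42 and 15.53 in A375M2 GFP, 13.81, 13.82 and 13.80 in shFHL2, 14.12, 14.11 and 14.28 in shNFYA, 14.44 and 14.48 in C32 GFP and 11.66, 11.60 and 11.64 in C32 shFHL2. It fell by 1.70 log2 (SE 0.0435 and limma adjusted p = 1.53e-16), 1.34 log2 (SE 0.0435 and limma adjusted p = 3.15e-15) and 2.83 log2 (SE 0.0487 and limma adjusted p = 7.38e-18) in these knockdown arms. The C32 fall was 7.09-fold. SERPINA1, the elastase inhibitor of plasma and a neighbour of SERPINA3 in a serpin cluster on chromosome 14, went up in A375M2 instead, from 2.60, 2.60 and 2.59 in GFP to 5.35, 4.34 and 4.85 in shFHL2 and 4.25, 5.40 and 5.61 in shNFYA. Its C32 values were 2.24 to 2.58.

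SERPINH1, the collagen chaperone of the endoplasmic reticulum that inhibits no protease, had the widest range of all 36 genes. It was listed at 1.78, 1.78 and 1.77 in A375M2 GFP and at 1.78, 1.78 and 1.77 in PMEL, with no spread between arrays. It read 10.51, 10.45 and 10.46 in shFHL2, 10.32, 10.55 and 10.47 in shNFYA, 11.95 and 12.21 in C32 GFP and 11.71, 11.67 and 11.69 in C32 shFHL2. The 4 groups outside A375M2 GFP and PMEL were thus all high. The arrays of A375M2 GFP and PMEL also shared no exactly equal value under log2 4 with the arrays used of these 4 groups. Group and set of arrays therefore cannot be told apart for this pattern. The rises were 8.70 log2 (SE 0.0735 and limma adjusted p = 8.05e-23) and 8.67 log2 (SE 0.0735 and limma adjusted p = 4.29e-23) in A375M2, and in C32 it fell by 0.39 log2 (SE 0.0822 and limma adjusted p = 0.000468). The gene has 1 probe set in the table, and the level in the A375M2 control arrays rests on it alone.

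Among serpins that act on thrombin and plasminogen activators, SERPIND1, the heparin-dependent thrombin inhibitor of plasma, read 2.52, 2.45 and 2.53 in A375M2 GFP, 9.88, 9.51 and 9.78 in shFHL2 and 10.49, 10.51 and 10.44 in shNFYA. It was at 2.17 on every C32 array. It rose by 7.22 log2 (SE 0.0953 and limma adjusted p = 2.11e-20) in shFHL2 and 7.98 log2 (SE 0.0953 and limma adjusted p = 3.76e-21) in shNFYA. SERPINA5, the inhibitor of activated protein C, lies in the same chromosome 14 cluster and read 6.85, 7.17 and 7.10 in A375M2 GFP, 5.16, 5.05 and 5.02 in PMEL, 8.55, 8.54 and 8.51 in shFHL2 and 9.14, 9.01 and 9.34 in shNFYA. The PMEL arm and the knockdown arms lay on opposite sides of GFP. It rose by 1.49 log2 (SE 0.107 and limma adjusted p = 3.55e-10) and 2.12 log2 (SE 0.107 and limma adjusted p = 1.85e-12) and fell in PMEL by 1.96 log2 (SE 0.107 and limma adjusted p = 2.45e-10), the latter 3.9-fold, with -1.91 within replicates 1 and 2 and -2.08 between the replicate 3 arrays. In C32 it was under log2 4 on every array.

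SERPINE2, or protease nexin, inhibits thrombin and urokinase at the cell surface. It read 7.56, 8.07 and 7.94 in A375M2 GFP, 8.38, 8.54 and 8.62 in shFHL2 and 8.16, 8.32 and 8.52 in shNFYA, and was higher by 0.66 log2 (SE 0.149 and limma adjusted p = 0.000549) and 0.48 log2 (SE 0.149 and limma adjusted p = 0.00628). In C32 its difference was -0.19 (limma adjusted p = 0.334). SERPINI1, or neuroserpin, inhibits tissue plasminogen activator and read 5.82, 5.90 and 5.93 in A375M2 GFP, 4.73, 5.13 and 4.89 in PMEL, 5.20, 5.48 and 5.38 in shFHL2 and 5.52, 5.62 and 5.58 in shNFYA. Each of these 3 arms was lower than GFP, PMEL most, by 0.96 log2 (SE 0.109 and limma adjusted p = 2.26e-06). It fell by 0.53 log2 (SE 0.109 and limma adjusted p = 0.000219) in shFHL2, while the fall of 0.31 in shNFYA (limma adjusted p = 0.0149) was -0.28 with an adjusted p of 0.0539 without replicate 3 of A375M2 GFP and PMEL and -0.18 with 0.135 after each array was centred on its median. In C32 it rose by 1.07 log2 (SE 0.122 and limma adjusted p = 5.87e-07), from 7.85 and 8.10 in GFP to 8.98, 9.16 and 8.98 in shFHL2.

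The clade B serpins act inside cells, and all 3 measured rose in both A375M2 knockdown arms. Of all genes 41.1% were higher in shFHL2 and 43.5% in shNFYA. SERPINB8, an inhibitor of furin in vitro, read 5.14, 5.14 and 4.84 in GFP, 9.03, 8.72 and 8.93 in shFHL2 and 9.56, 9.99 and 9.93 in shNFYA. It rose by 3.86 log2 (SE 0.137 and limma adjusted p = 1.59e-14) and 4.79 log2 (SE 0.137 and limma adjusted p = 4.92e-16). SERPINB7, its near neighbour on chromosome 18, read 2.41, 2.66 and 2.31 in GFP, 3.49, 2.51 and 3.08 in shFHL2 and 6.94, 7.23 and 7.25 in shNFYA, so that shNFYA was the single group above log2 4. It rose by 4.68 log2 (SE 0.179 and limma adjusted p = 3.41e-14) there, and its call in shFHL2, 0.57 (limma adjusted p = 0.00709), rests on values under log2 4 and ended without shFHL2 replicate 1, at 0.34 with an adjusted p of 0.0592. SERPINB1, an inhibitor of neutrophil proteases, rose by 0.76 and 0.47 in A375M2 and fell in C32 by 0.97 log2 (SE 0.0668 and limma adjusted p = 8.99e-10), from 9.14 and 8.95 to 8.06, 8.19 and 7.98. SERPINB8 and SERPINB7 were not called in C32. In PMEL the fall of SERPINB8 by 0.36 (limma adjusted p = 0.0442) ended without any 1 of replicates 1 and 2 of GFP or PMEL, with adjusted p-values of 0.0866 to 0.199, and came to 0.04 between the replicate 3 arrays.

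**Figure D4:**
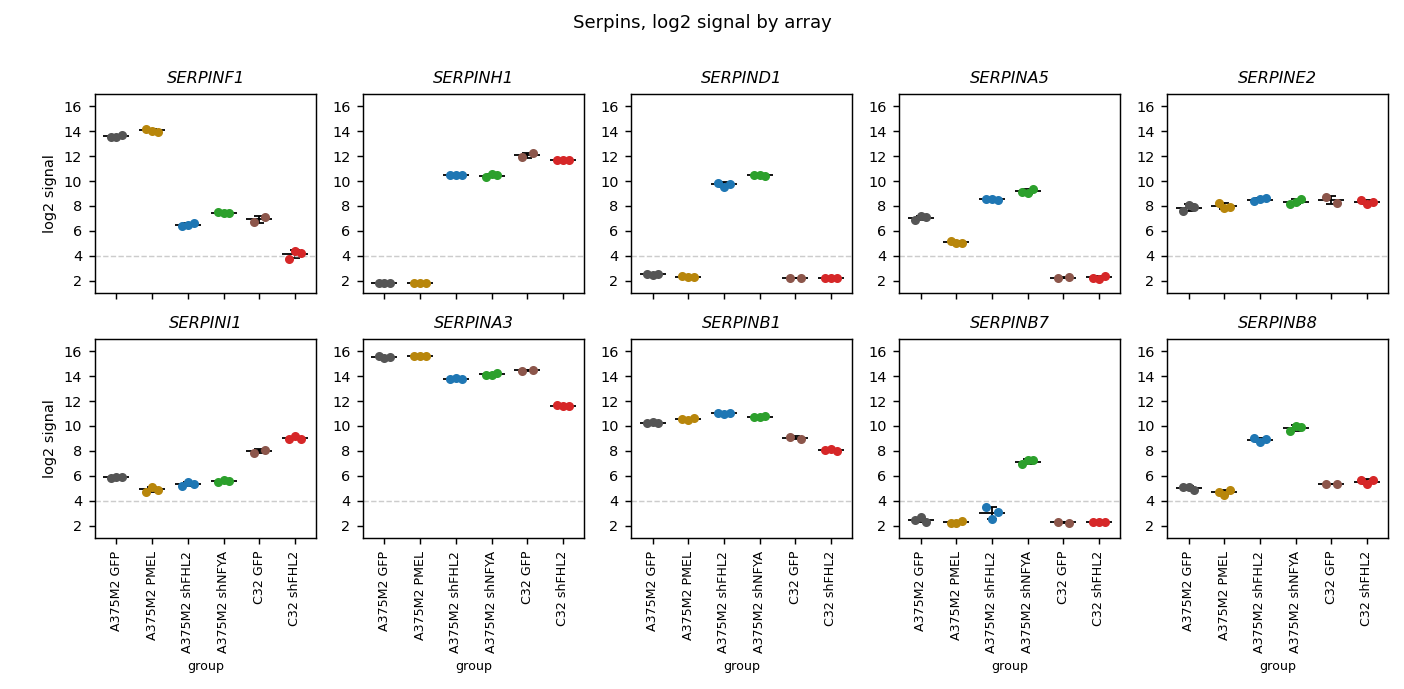
Log2 signal (vertical axis) of 10 serpins on each array of the 6 groups (horizontal axis); points are arrays, bars the mean ± SD, the dashed line log2 4, and C32 GFP has 2 arrays. SERPINH1 and SERPIND1 leave the bottom of the scale in both A375M2 knockdown arms, and SERPINF1 drops in them.

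NFYA is a subunit of the factor that binds CCAAT, so the promoters were searched for CCAAT on both strands. It was present in 12 of the 27 genes with a promoter, and in 37.0% of all genes in the table and 32% of all promoters. In A375M2 shNFYA, 11 of these 12 were tested and all were called, 6 higher and 5 lower, where 43.5% of all genes were higher and 43.3% lower. SERPIND1 rose and TIMP3 is among those lower, with the disagreement of its probe sets given above. Their 250 bases before the start are shown, RefSeq on GRCh38.p14, with the motif in capitals as it lies on the reverse strand: SERPIND1 at chr22:20773863-20774112 and TIMP3 at chr22:32801455-32801704, both on the plus strand.
SERPIND1: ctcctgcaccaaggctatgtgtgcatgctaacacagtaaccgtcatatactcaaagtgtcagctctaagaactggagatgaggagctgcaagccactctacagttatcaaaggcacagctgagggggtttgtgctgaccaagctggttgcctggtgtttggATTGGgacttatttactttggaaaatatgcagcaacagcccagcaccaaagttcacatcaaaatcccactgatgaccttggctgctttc
TIMP3: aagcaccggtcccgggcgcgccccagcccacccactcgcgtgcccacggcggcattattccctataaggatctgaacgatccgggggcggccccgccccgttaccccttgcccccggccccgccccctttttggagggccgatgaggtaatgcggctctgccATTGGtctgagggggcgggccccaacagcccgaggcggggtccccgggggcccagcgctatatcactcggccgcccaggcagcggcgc
In these sequences the motif begins 89 bases before the start of SERPIND1 and 88 bases before the start of TIMP3. The ETS core GGAA, searched on both strands, was in 92.7% of all promoters and in 29 of 32 of these, a like share.

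The knockdown arms were compared with each other without the GFP arrays. MMP10, SERPINB7, MMP9 and TIMP1 were higher in shNFYA, and ADAMTS1, MMP2, MMP16 and ADAM12 were higher in shFHL2. Of 36 genes 27 differed, 7 higher and 20 lower in shFHL2, against 70.1% of all genes, 31.8% higher and 38.3% lower. A minimum of 2-fold left 10, 4 higher and 6 lower, against 10.4% of all genes, 6.37% higher and 4.02% lower. Of these, SERPINB7, MMP9 and ADAMTS15 had a mean under log2 4 in shFHL2. They passed the filter through the shNFYA arrays alone, so a call for them could only be lower in shFHL2. SERPINB7 differed by -4.12 log2 (SE 0.179 and limma adjusted p = 1.32e-12), MMP9 by -2.01 log2 (SE 0.145 and limma adjusted p = 1.19e-09) and ADAMTS15 by -1.60 log2 (SE 0.128 and limma adjusted p = 4.72e-09). In the other direction MMP16 was higher in shFHL2 by 1.31 log2 (SE 0.0391 and limma adjusted p = 8.65e-15), ADAM12 by 1.30 log2 (SE 0.316 and limma adjusted p = 0.00136), ADAMTS1 by 1.15 log2 (SE 0.129 and limma adjusted p = 3.83e-07) and MMP2 by 1.01 log2 (SE 0.116 and limma adjusted p = 5.13e-07). MMP16's other 4 probe sets ran from -0.21 to 0.48. For SERPINH1 the 2 arms were 0.03 apart and for ADAM10 -0.01, with limma adjusted p-values of 0.741 and 0.817.

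The GFP arms of the 2 lines also differed, on separate sets of arrays, so line and set of arrays cannot be told apart here. C32 GFP had more SERPINH1, MMP1, MMP8, ADAMTS9, MMP14 and SERPINI1 than A375M2 GFP, and less SERPINF1, MMP2, SERPINA5 and MMP16. Of 36 genes 28 differed, 10 higher and 18 lower in C32, against 85.9% of all genes, 38.7% higher and 47.2% lower. A minimum of 2-fold left 18, 7 higher and 11 lower, against 43.1% of all genes, 18.3% higher and 24.8% lower. Of these, SERPINH1, MMP1, ADAMTS9, MMP2, SERPINA5 and ADAM11 had a group mean under log2 4. The split moved to 13 higher and 16 lower after median centring of the arrays and to 14 and 15 with quantile normalization; the array medians of C32 GFP lay 0.20 below those of A375M2 GFP. SERPINH1 differed by 10.31 log2 (SE 0.0822 and limma adjusted p = 1.15e-23), MMP1 by 4.25 log2 (SE 0.0906 and limma adjusted p = 7.24e-18) and MMP8 by 3.29 log2 (SE 0.0873 and limma adjusted p = 1.58e-16). In the other direction SERPINF1 was lower in C32 by 6.69 log2 (SE 0.144 and limma adjusted p = 7.91e-18), MMP2 by 5.74 log2 (SE 0.13 and limma adjusted p = 1.61e-17), SERPINA5 by 4.80 log2 (SE 0.119 and limma adjusted p = 6.58e-17) and MMP16 by 3.10 log2 (SE 0.0437 and limma adjusted p = 2.14e-20). SERPINB1 was lower by 1.23 by the probe set used, whereas its other 2 probe sets were higher by 0.51 and 1.48.

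FHL2 knockdown can be set side by side in the 2 lines, which share no arrays. Of the 34 genes called in A375M2 and the 18 called in C32, 18 were called in both, which is 52.9% of the first and 100% of the second. Over all genes these shares were 62.8% and 85.6%. Of these 18, 10 went the same way: ADAM12, MMP14, MMP16, SERPINA3, SERPINF1, TIMP2 and TIMP3 fell in both, and ADAM19, ADAMTS3 and MMP1 rose in both. The remaining 8 were ADAM10, MMP2, SERPINB1, SERPINH1 and TIMP1, higher in A375M2 and lower in C32, and ADAM22, ADAM23 and SERPINI1, which were lower in A375M2 and higher in C32. With values under log2 4 set to 4, the MMP2 change in C32 became 0 and the ADAM22 change in A375M2 -0.02. Without C32 GFP replicate 2 the C32 rise was 0.15 for ADAM23 and 0.25 for MMP1. The MMP2 call in A375M2 ended in 5 fits with fewer arrays, as given above. All these calls are counted in the shares that follow. The share of same direction was 55.6%, where over all genes called in both lines it was 58.4%. At 2-fold or more in both lines, 4 of 5 went the same way (ADAM12, ADAM19, SERPINA3 and SERPINF1), and ADAM22 did not; over all genes the share was 64.8%.

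The difference between the lines in the effect of FHL2 knockdown was tested with an interaction term. It passed for 32 of 36 genes, 14 higher and 18 lower in C32 than in A375M2, against 80.2% of all genes, 42.1% higher and 38.1% lower. It passed with a difference of 2-fold or more for 21, against 34% of all genes. The A375M2 arm in this term carries the array sets described above. SERPINH1 and MMP1 differed most, by -9.09 log2 (SE 0.11 and limma adjusted p = 2.49e-20) and -8.52 log2 (SE 0.122 and limma adjusted p = 2.07e-19), followed by SERPIND1 at -7.22 log2 (SE 0.143 and limma adjusted p = 1.56e-17). In the other direction SERPINF1 differed by 4.34 log2 (SE 0.193 and limma adjusted p = 7.94e-13), ADAM22 by 3.36 log2 (SE 0.258 and limma adjusted p = 1.48e-09), MMP8 by 2.99 log2 (SE 0.117 and limma adjusted p = 1.43e-13) and TIMP2 by 2.08 log2 (SE 0.0862 and limma adjusted p = 3.11e-13). For these 4 the change was more negative in A375M2 than in C32, and ADAM22 was called lower in A375M2 and higher in C32. With values under log2 4 set to 4 the ADAM22 term was 0.69 (limma adjusted p = 0.00271) and that of SERPINA1, -2.38 as fitted, was -0.85 (limma adjusted p = 0.0572). For TIMP3 the term was -0.45 log2 (SE 0.0428 and limma adjusted p = 2.6e-08), while its 4 probe sets ran from -0.85 to 0.20, and for ADAM12 it did not pass, at -0.94 log2 (SE 0.474 and limma adjusted p = 0.0768).

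**Figure D5:**
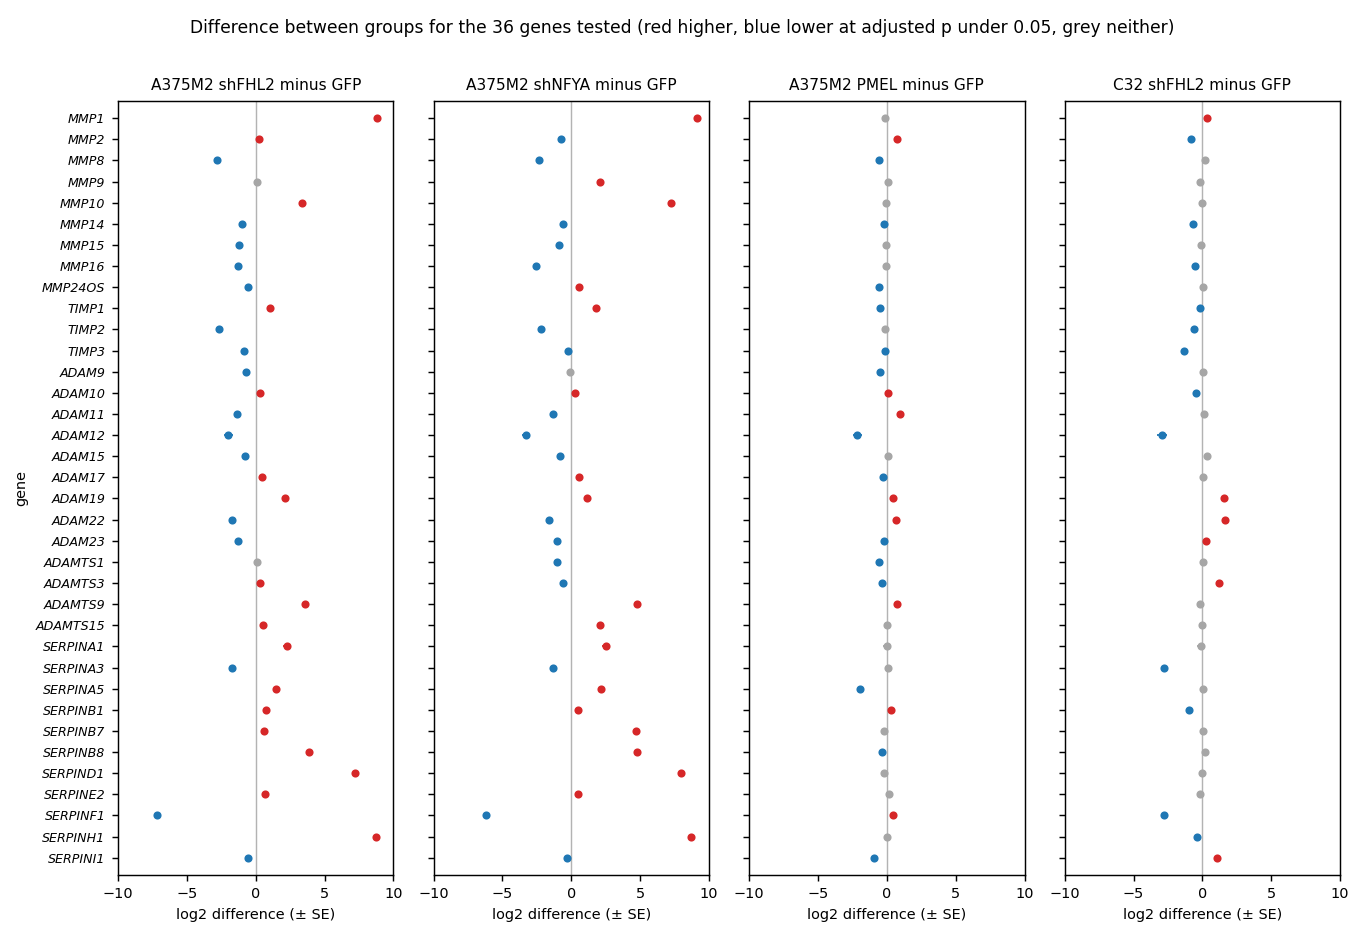
Log2 difference from GFP (horizontal axis, with SE, mostly smaller than the point) of the 36 genes tested (vertical axis) in A375M2 shFHL2, A375M2 shNFYA, A375M2 PMEL and C32 shFHL2; red is higher and blue lower at a limma adjusted p under 0.05, grey neither. The 2 left panels share their GFP arrays with the PMEL panel, the differences in the PMEL panel lie between -2.14 and 0.93, and ADAM12 is blue in all 4.

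Plasminogen activators and receptors make plasmin, which activates MMP zymogens and is held in check by several of these serpins. The list of 10 used here also holds the inhibitors TFPI and TFPI2 and the receptor LRP1, so its counts do not stand for plasmin-making genes alone. Of 8 genes measured from it, 7 were higher and 1 lower in each A375M2 knockdown arm. Of all genes 41.1% were higher in shFHL2 and 43.5% in shNFYA. The median of the 8 was 0.88 log2 in shFHL2 and 1.39 in shNFYA, and that of all genes -0.04 and 0.00. PLAUR, the urokinase receptor, rose by 2.24 in shFHL2, 2.87 in shNFYA and 1.58 in C32. PLAT, tissue plasminogen activator, rose by 0.67 and 1.37 in A375M2 and fell by 1.11 in C32, and S100A10, a plasminogen receptor subunit, rose by 1.0, 1.34 and 0.43. TFPI2, an inhibitor of plasmin, rose by 1.58 and 2.02 and was lower in C32 GFP than in A375M2 GFP by 9.79. The gene lower in both arms was LRP1, the endocytic receptor that clears serpin complexes, at -0.85 and -0.98. In C32 4 of the 8 were higher and 4 lower, against 32.2% and 30.3% of all genes.

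Other cell-surface and secreted proteases went both ways, with 4 of 9 measured higher and 4 lower in each A375M2 knockdown arm and 1 higher and 3 lower in C32. Of all genes 41.1% were higher and 44.3% lower in shFHL2, 43.5% and 43.3% in shNFYA, and 32.2% and 30.3% in C32. FAP, a surface dipeptidyl peptidase of activated fibroblasts, fell by 5.63 in shFHL2 and 5.58 in shNFYA, and PAPPA2, which cuts IGF-binding proteins, rose by 6.47 and 7.45. FAP averaged 8.93 in A375M2 GFP and was under log2 4 in both knockdown arms, at 3.3 and 3.35. Levels of PAPPA2, PCSK5, SPOCK1 and TFPI2 are not given here, so their differences may rest on values under log2 4. HTRA1, a secreted serine protease, changed by -1.90 and -3.44, and ANPEP, a surface aminopeptidase, rose by 3.17 and 3.45. Of 3 convertases, which activate membrane-type MMPs and ADAMs, 2 were lower in shFHL2 and 1 in shNFYA, beside these shares. FURIN fell by 0.91 in shFHL2 and PCSK7 by 1.27 and 1.32, and in C32 PCSK5 rose by 4.11.

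Of 13 further inhibitors and MMP regulators, 5 were higher and 5 lower in shFHL2, 4 and 7 in shNFYA, and 4 and 7 in C32. These are 10, 11 and 11 calls of 13, where 85.4%, 86.8% and 62.6% of all genes were called. PCOLCE, an enhancer of procollagen processing, fell by 3.42 and 5.09 in A375M2, and cystatin C (CST3) changed by -2.28, -1.58 and, in C32, -0.69. BSG, an inducer of MMPs on neighbouring cells, fell by 1.97 and 1.61. RECK, a membrane-anchored MMP inhibitor, fell by 0.24 in shFHL2, 2.52 in shNFYA and 1.11 in C32. SPOCK1, a matrix proteoglycan, rose in C32 by 4.55.

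AP-1 and ETS factors act on many MMP promoters. Of 14 measured, 8 were higher and 6 lower in shFHL2, 4 and 10 in shNFYA, and 1 and 9 in C32. The shares of all genes higher and lower were 41.1% and 44.3%, 43.5% and 43.3%, and 32.2% and 30.3% in the same order. FOS and JUN went opposite ways under the 2 shRNAs in A375M2, with FOS at 2.0 in shFHL2 and -1.13 in shNFYA and JUN at 0.99 and -0.16. FOSL1 rose by 0.65, 0.41 and, in C32, 1.65, and ETS2 fell by 1.74, 2.42 and 1.06. Of 11 shed substrates of ADAM10 and ADAM17, 5 were higher and 5 lower in shFHL2, 3 and 5 in shNFYA, and 1 and 4 in C32, beside the same shares of all genes. HBEGF, a ligand of the EGF receptor, rose by 2.77 and 2.11 in A375M2 and fell by 1.25 in C32, L1CAM rose by 1.46 and 3.82, and CD44 fell by 1.05 and 1.78.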

How the data were processed

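RNA of 18 cultures was measured on Affymetrix 3′ expression arrays. The deposited values are log2 signals, and the submitters' processing notes name GCRMA as the tool with no version. The authors' table was used as it stands, and each column was tied to 1 sample through its title. Of 23416 probe sets, 20264 carry 1 gene symbol by the platform annotation. The filter asked for log2 4 in 3 arrays, and where a gene had several probe sets the brightest on average was taken, which left 10940 genes. Signal over background limits the precision of low genes.

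Linear models of the 6 groups were fitted to all 10940 genes on 17 arrays by limma 3.58.1 (R 4.3.3) with lmFit and a trended eBayes, leaving 11 residual degrees of freedom. Benjamini-Hochberg adjustment was made within each of 7 comparisons, with calls at 0.05. The main fit left out C32 GFP replicate 3, which earlier results on these data had found not to be independent by its values. A fit with all 18 arrays was an alternative. The pipeline was tested on simulated data. Promoters were searched with Python 3.11.15 and plots drawn with matplotlib 3.10.9.

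The genes, their lists and the tests were chosen with earlier results of these data known. Named in the text are the collagenases, gelatinases, TIMPs and serpins of plasminogen activators and thrombin; the 8 largest rises and falls of at least 2-fold per comparison that do not overlap between groups and reach a mean of log2 6; and up to 4 called genes of each pathway list. The remaining genes of these families, and any further list genes with values, were added after they were seen. The fit was repeated with other filters and floors, other scalings, other probe sets, other variance models, stricter thresholds, weighted arrays, the replicate number as a block, and without each array in turn. Treating the replicate 3 arrays as a set was added after the data were seen.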

Additional observations from a re-analysis of the deposited data

Results flagged for a closer look

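The change with FHL2 knockdown differed between the lines, by limma's interaction term at an adjusted p under 0.05, for 32 of the 36 genes tested, where 80.2% of all genes did; the adjusted p-values of the 32 ran from 2.49e-20 to 0.0242. The values below are the log2 change in C32 minus that in A375M2, with 3 shFHL2 arrays in each line. The 12 genes with a change at least 1 log2 lower in C32 were SERPINH1 -9.09, MMP1 -8.52, SERPIND1 -7.22, ADAMTS9 -3.75, SERPINB8 -3.65, MMP10 -3.41, SERPINA1 -2.38, SERPINB1 -1.73, SERPINA5 -1.48, TIMP1 -1.23, SERPINA3 -1.12 and MMP2 -1.10. The 9 with a change at least 1 log2 higher were SERPINF1 4.34, ADAM22 3.36, MMP8 2.99, TIMP2 2.08, SERPINI1 1.59, ADAM23 1.56, ADAM11 1.46, ADAM15 1.13 and MMP15 1.12. Differences under 1 log2 were, on the lower side, SERPINE2 -0.85, ADAM10 -0.72, ADAM19 -0.54, ADAMTS15 -0.50, TIMP3 -0.45 and ADAM17 -0.43, and on the higher side ADAMTS3 0.91, ADAM9 0.77, MMP16 0.70, MMP24OS 0.57 and MMP14 0.31.

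The parts of the term show how the lines differed. SERPINH1, the collagen chaperone, changed by 8.70 in A375M2 and -0.39 in C32, and TIMP1 by 1.05 and -0.18. SERPINI1 changed by -0.53 and 1.07, and ADAM22 by -1.73 and 1.63. SERPINF1 fell in both, by 7.14 and 2.80. Replicate 3 of A375M2 GFP bears on the term, and without it and PMEL replicate 3 ADAMTS15 came to -0.50 (limma adjusted p = 0.0524) and MMP14 to 0.28 (0.0532). With values under log2 4 set to 4, the terms of SERPINA1 (-0.85, limma adjusted p = 0.0572), ADAM11 (0.09, 0.672) and ADAMTS15 (0.00, 1) no longer passed, and MMP10 came to -1.86, ADAM22 to 0.69 and MMP2 to -0.27. The 4 probe sets of TIMP3 ran from -0.85 to 0.20. In C32 SERPIND1 stayed at 2.17 on every array.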

How the results depend on the processing

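The number of genes called among those tested stayed within 1.5 times of the reported count in every comparison under every alternative except the 2-fold rule, which gave 20 (A375M2 shFHL2), 23 (shNFYA), 2 (PMEL), 10 (shFHL2 against shNFYA), 8 (C32 shFHL2), 18 (C32 GFP against A375M2 GFP) and 21 (interaction). A stable count can hide changes in single genes. A call was lost or gained, or a direction turned, under at least 1 alternative for 6, 6, 15, 8, 10, 12 and 7 genes in that order. With each array left out in turn the counts were 32 to 34, 35 to 36, 18 to 23, 26 to 27, 16 to 19, 27 to 28 and 30 to 33 in that order. Deviations of same-numbered replicates correlated between -0.25 and 0.081, apart from -0.999 for replicate 3 of A375M2 GFP and PMEL, so the numbers were not taken to pair samples; with a replicate block the counts were 34, 35, 21, 28, 18, 28 and 32. With the replicate 3 arrays of A375M2 GFP and PMEL as a set, PMEL had 21 calls.

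Directions turned mostly with the choice of probe set. With the probe set of largest variance, MMP24OS came to -0.48 and TIMP3 to 1.14 in shNFYA, ADAM10 to -0.02 in PMEL, ADAM23 to 0.29 and MMP14 to 0.24 in shFHL2 against shNFYA, ADAM9 to -0.29 and MMP24OS to -0.53 in C32, ADAM10 to -0.65 and ADAM23 to 0.72 between the lines, and ADAM17 to 0.46 in the interaction. With the mean of all probe sets, MMP24OS came to -0.20 and TIMP3 to 0.38 in shNFYA, MMP24OS to -0.36 in C32, and ADAM10 to -0.30, ADAM23 to 0.44 and SERPINB1 to 0.25 between the lines. Quantile normalization put ADAM10 at 0.07 in shFHL2 against shNFYA, and centring put ADAM23 at 0.01 between the lines. The cause was not tested. Differences resting on values under log2 4, such as those of ADAM11, ADAM22, ADAMTS15 and SERPINB7 in A375M2 shFHL2, ended when such values were set to 4, since both groups then sit at or near that floor.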

Other observations

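Array values of several genes were not given above. ADAM11, a receptor-like ADAM of neurons, read 4.90, 4.21 and 4.81 in A375M2 PMEL against 3.32, 4.28 and 3.53 in GFP, and 2.34 to 2.70 on every other array used. SERPINA6, the corticosteroid carrier, read 2.98, 3.34 and 3.27 in A375M2 GFP and 3.40, 3.10 and 3.13 in PMEL, and 2.21 on every other array. ADAM15 read 5.79, 6.12 and 5.72 in A375M2 GFP, 5.04, 5.14 and 5.10 in shFHL2 and 4.84, 5.27 and 5.14 in shNFYA. ADAMTS1, a protease of versican, read 9.01 and 8.55 in C32 GFP and 8.95, 8.85 and 8.63 in C32 shFHL2, above all A375M2 arrays. ADAM17, the sheddase of TNF, read 9.0 and 8.99 in C32 GFP and 9.0, 9.02 and 9.04 in C32 shFHL2, below all A375M2 arrays.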
